A study of Arabidopsis thaliana with 123 samples.

Results

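Transcripts of the plastid genome were followed through seed maturation in Arabidopsis thaliana wild type and 10 lines altered in abscisic acid or dormancy genes. The members are all rows of the raw count table whose gene ID begins with ATCG, the prefix of plastid loci, and whose counts sum to at least 100 over all libraries. That holds for 93 of the 133 ATCG rows and of 37336 rows in all. The members were selected on their summed counts, so their abundance is given as a description. All seeds were of the Col-0 accession, and libraries came from 2 rounds of the experiment, batch A with 31 libraries and batch B with 92, in each of which plants were grown together. Batch A held abi3-6 seeds at 16, 18, 20 and 22 days after pollination (DAP) and wild-type (WT) seeds at 12, 14, 16, 18, 20, 22 and 24 DAP and dry, the dry stage being labelled as 26 days or later. Batch B held abi3-6 at 24 DAP and dry, and dog1-4 at 20, 22 and 24 DAP and dry. Single abi3-12, double abi3-12 dog1-4, triple abi3-12 dog1-4 cyp707a2 and WT seeds were sampled in batch B at 18, 20, 22 and 24 DAP and dry. Single aba2-1, double dog1-4 aba2-1 and abi3-12 aba2-1, triple abi3-12 dog1-4 aba2-1 and the line L2-1 were sampled in batch B as dry seeds only. The mutants are labelled as knock-outs and L2-1 as a transgenic line, Col-0 with the DOG1 gene of accession Cvi. The 43 groups of line, stage and batch had 3 replicate libraries each in 37 cases and 2 in 6, each made from seeds pooled from several siliques. Nothing says that the siliques of different replicates came from different plants, so the tests judge differences against the spread between these pools.

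The plastid genome encodes part of the photosynthetic complexes, part of the plastid ribosome and the core of one RNA polymerase. That plastid-encoded polymerase needs sigma factors made from nuclear genes, and a phage-type polymerase encoded in the nucleus transcribes other plastid genes. In maturing Arabidopsis embryos the green chloroplasts lose their thylakoids and chlorophyll, and the transcription factor ABI3 is needed for this degreening. DOG1 promotes dormancy, ABA2 acts in the synthesis of abscisic acid, and CYP707A2 breaks abscisic acid down. Stable poly(A) tails are a mark of nuclear messengers, while in plastids a tail marks RNA for decay. These libraries were made from poly(A)-captured RNA, so a count here is the part of plastid RNA that passed this capture. Whether capture differed between groups was not tested. In whole seeds, fewer plastids or plastid-bearing cells and less RNA per plastid cannot be told apart.

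The members held 2159745 of 1389996001 counts, or 0.155%. The 4 rows with most counts held 92.8% of the members' counts. They form 2 pairs, ATCG00950 with ATCG01180 and ATCG00920 with ATCG01210, whose counts were the same within 2% or 1 count in 100% of the libraries that could be compared. Pairs were accepted when counts were the same in this sense in at least 70% of those libraries, with a Pearson r of at least 0.9. In all, 22 member rows form 11 such pairs, as the copies of a repeated region would. ATCG00830 with ATCG01310 had 74.1% of libraries the same, and ATCG00890 with ATCG01250 had 81.2%. The 93 rows thus hold 82 distinct ones, and paired rows are not independent. The other 89 rows held 155155 counts together. The median member had 742 counts over all libraries. The row just inside the threshold was ATCG01040 with 104 counts, followed by ATCG00600 and, with 136 counts, ATCG00700. Just outside were ATCG00210 with 90, ATCG00410 with 80 and ATCG00080 and ATCG00510 with 72 each. The 40 rows outside held 800 counts together, and 7 of them were at 0 in every library.

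The reference gives a note on 7 members. They are ATCG00670 (plastid-encoded ClpP, the proteolytic subunit of the plastid Clp protease), ATCG00660 (ribosomal protein L20), ATCG00750 (ribosomal protein S11), ATCG01310 (ribosomal protein L2), ATCG00530 (a CemA-like proton extrusion protein), ATCG00430 (photosystem II reaction center protein G) and ATCG00420 (parent of a nuclear pseudogene). The files do not pair the other IDs with names, so they are given by ID without a role. Among the members, 60 had counts high enough to be tested in batch A and 72 in batch B. All 60 were also tested in batch B, and 21 members, ATCG00430 and ATCG00420 among them, were tested in neither. A member could pass this filter through a single group in which it was high, so the members tested are not all members. In 25 rows, a library at 0 stood beside a library of the same group with 10 or more counts. This happened in 15 groups for ATCG00270, in 9 each for ATCG00740, ATCG00830 and ATCG01310, and in 2 for ATCG00670. What gives these values of 0 was not tested.

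Library totals were between 2577281 and 20277489 counts, with a median of 11678153. The DOG1 transcript averaged 0.776 to 1.12 CPM (counts scaled to library size by TMM factors) in dry seeds of the 5 lines with the dog1-4 allele and 40.1 ± 2.6 in L2-1, against 33.0 ± 8.15 CPM in dry WT of batch B (SD, n = 3 each). CYP707A2 averaged 9.98 ± 0.611 CPM in dry abi3-12 dog1-4 cyp707a2, against 65.4 ± 9.28 in WT, but it was at 5.48 ± 0.286 in abi3-12 dog1-4, which keeps the gene. ABI3 averaged 143 ± 11.5 CPM in dry abi3-6, against 200 ± 7.51 in WT. ABA2 averaged 1.74 ± 0.215 CPM in dry aba2-1, against 1.92 ± 0.204 in WT. Dry-seed transcript levels of CYP707A2, ABI3 and ABA2 therefore do not check those alleles. At 18 DAP, CYP707A2 averaged 0.592 ± 0.513 CPM in the triple mutant, against 14.8 ± 9.4 in abi3-12 dog1-4. At 20 DAP it averaged 6.66 ± 2.35 against 50.8 ± 7.28, and neither pair of groups overlapped. At 22 and 24 DAP it was higher in the triple mutant, at 14.2 ± 1.76 against 6.36 ± 1.66 and 12 ± 1.12 against 5.48 ± 0.472 (SD, n = 3 each).

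Replicates of a group often differed in plastid RNA. The share of all counts held by the members differed by a factor of 2 or more between replicates in 10 of 43 groups, with a median factor of 1.40 and a highest of 4.89. The libraries high in plastid RNA were also high in mitochondrial RNA. The library with the highest plastid share had the highest share of the 90 mitochondria-encoded rows in 31 of 43 groups. Over all libraries, deviations from the group mean of the log2 plastid share and the log2 mitochondrial share had r = 0.913, while plastid share and library total had r = -0.121. Both shares of a library have the same total below them. In 6 libraries, identified after seeing the data, the plastid share was over 2 times the mean of the other libraries of the group. These were WT replicate 2 at 20 DAP, WT replicate 1 at 24 DAP, WT replicate 1 of the dry stage and abi3-6 replicate 1 at 18 DAP in batch A, and abi3-12 replicate 2 at 18 DAP and abi3-12 dog1-4 replicate 3 at 22 DAP in batch B. What sets these libraries apart was not tested, and the counts that rest on them are given with and without them.

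**Figure D1:**
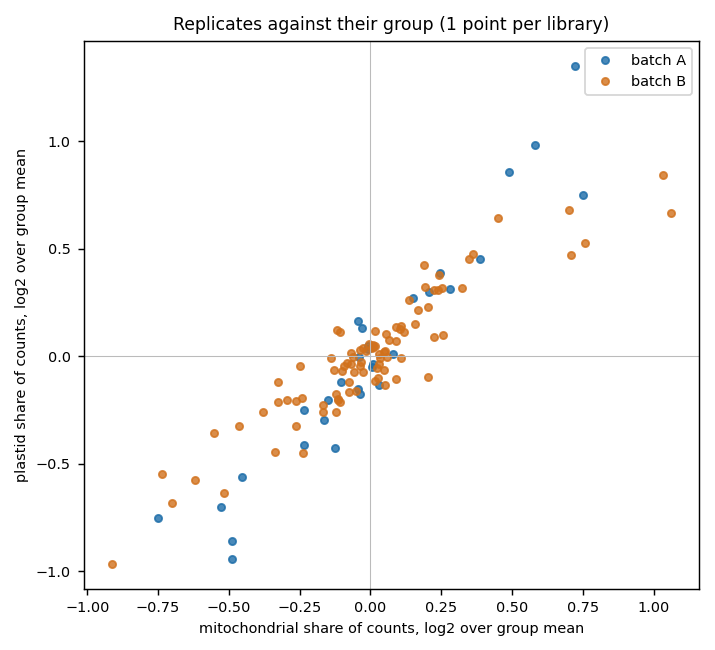
Share of counts held by plastid-encoded members (vertical axis) and by mitochondria-encoded rows (horizontal axis) in each library, as log2 of the share over the mean of its group, with batch A in blue and batch B in orange. Libraries high in plastid RNA for their group were mostly high in mitochondrial RNA too (r = 0.913, a description).

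In wild type the plastid share was highest at 12 DAP among the batch A stages before 20 DAP, and replicates spread widely later. No test was made on shares. In batch A it averaged 0.167% ± 0.0341 at 12 DAP, 0.116% ± 0.0337 at 14 DAP, 0.0674% ± 0.0245 at 16 DAP and 0.0729% ± 0.00860 at 18 DAP (SD, n = 3 each). The later batch A groups, from 20 DAP to dry, averaged between 0.0636% and 0.126%, and 3 of them hold a library that stood apart. Without that library the mean was 0.0785% at 20 DAP and 0.0632% in dry seeds, and the other library at 24 DAP had 0.0297%. In batch B the share was 0.158% ± 0.0149 at 18 DAP, 0.118% ± 0.0496 at 20 DAP, 0.157% ± 0.0390 at 22 DAP, 0.1% ± 0.0106 at 24 DAP and 0.0893% ± 0.00766 in dry seeds (SD, n = 3 each). The 2 batches thus differed at 18 DAP by more than the spread of either. Without the 4 most abundant rows, the other 89 members held 144 ± 18.4 CPM of unscaled totals at 12 DAP, 59.0 ± 7.92 at 18 DAP and 80.2 ± 49.4 when dry in batch A (SD, n = 3 each). Batch B seeds held 63.6 ± 7.99 at 18 DAP and 81.4 ± 4.10 when dry.

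The single rows went different ways in wild type, as the plot of 4 rows by stage shows. ATCG00490 had 12.8, 13.4 and 15.2 CPM in the 3 libraries at 12 DAP, 4.19, 4.08 and 11.3 at 14 DAP and 1.45, 1.92 and 0.511 at 16 DAP. At 18 DAP it had 0.870, 1.06 and 0.501 CPM, and no later WT library of either batch was over 1.18. The 18 and 12 DAP libraries did not overlap, and the edgeR quasi-likelihood test gave a log2 fold change of -4.05 with an SE of 0.59 (adjusted p = 1.04e-06). ATCG00190 took the opposite course. It had 1.78, 1.56 and 2.15 CPM at 12 DAP, 1.99, 3.62 and 2.17 at 18 DAP, 6.95, 8.37 and 6.69 at 20 DAP and 9.30, 7.40 and 7.90 in dry seeds of batch A. In batch B it had 2.13, 2.85 and 2.75 CPM at 18 DAP, 2.64, 6.87 and 5.82 at 20 DAP, 10.7, 7.56 and 9.52 at 22 DAP and 11.1, 13.9 and 13.6 in dry seeds. Dry seeds were above 18 DAP seeds without overlap in both batches, with log2 fold changes of 1.69 (batch A, SE 0.18, adjusted p = 9.37e-09) and 2.26 (batch B, SE 0.26, adjusted p = 1.3e-11).

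**Figure D2:**
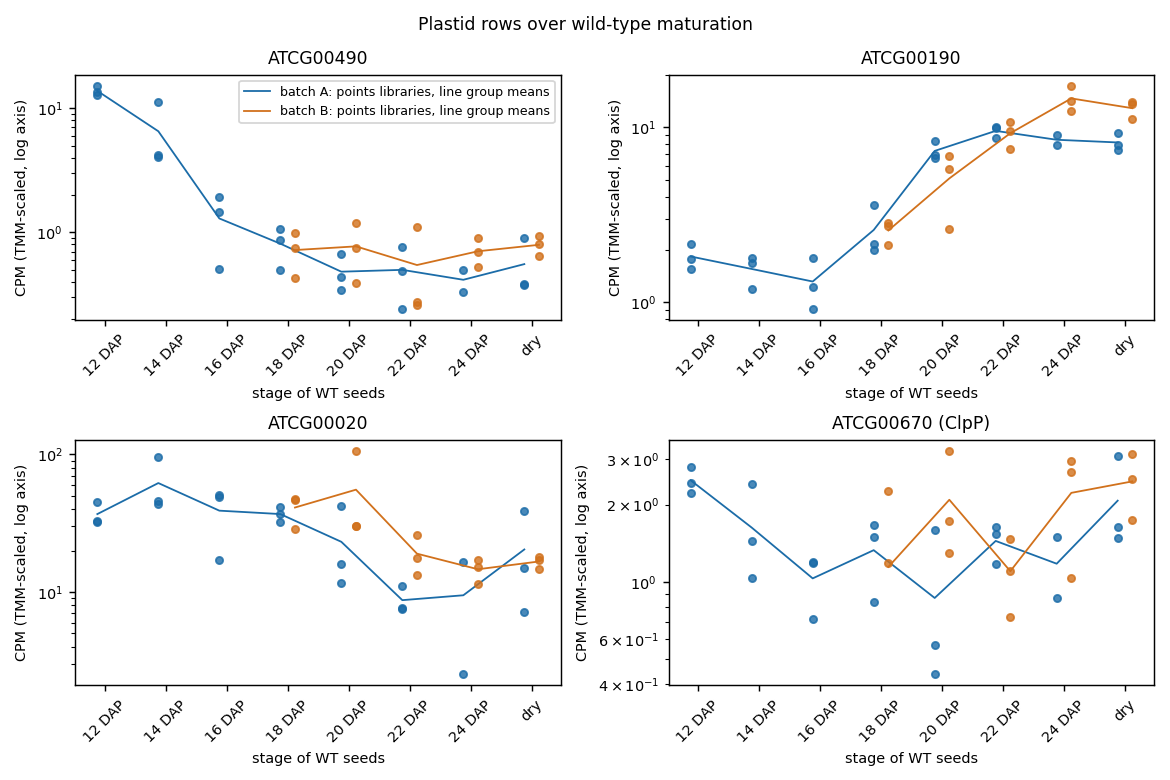
Level of 4 plastid rows in WT seeds by stage, in CPM scaled by TMM factors on a log axis, with points for libraries and lines for group means, batch A in blue and batch B in orange. ATCG00490 averaged 13.8 CPM at 12 DAP and stayed at or under 1.18 in every library from 18 DAP on, while ATCG00190 rose after 18 DAP in both batches. A library at 0 has no point, which holds for ATCG00670 in replicate 1 at 18 DAP of batch B.

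ATCG00020, the member with most counts after the 2 pairs, was high and variable early and lower late. It averaged 36.9 ± 7.40 CPM at 12 DAP, 61.9 ± 30.0 at 14 DAP, 36.8 at 18 DAP and 8.73 at 22 DAP in batch A. In batch B it had 46.8, 47.7 and 28.9 CPM at 18 DAP, 106, 30.1 and 30.3 at 20 DAP and 18.1, 14.7 and 17.2 in dry seeds. Its fall between 18 DAP and the dry stage passed the test in batch B (log2 fold change -1.29, SE 0.46, adjusted p = 0.0108) but not in batch A, where dry replicate 1, one of the libraries that stood apart, had 39.0 CPM beside 7.15 and 15.0 (log2 fold change -0.78, SE 0.59, adjusted p = 0.259). Without the libraries that stood apart, the batch A fall passed too (log2 fold change -1.65, adjusted p = 0.00155). The batch B call was lost with library totals alone (adjusted p = 0.158) and without WT 18 DAP replicate 2 (adjusted p = 0.0663). The ClpP row ATCG00670 passed neither test between 18 DAP and another stage in batch A (18 against 12 DAP, adjusted p = 0.0572) nor that of batch B, and stayed between 0 and 3.23 CPM in all WT libraries.

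Counted over the members tested, 11 of 60 were lower and 0 higher at 18 than at 12 DAP in batch A, beside 39.8% of 20414 genes called lower, 33.3% called higher and 73.1% called in either direction. Without WT 18 DAP replicate 2 the count was 6, and without replicate 3 it was 5. This share lies below that of all genes and is no result about the members. In the dry stage against 18 DAP, 13 members were higher and 4 lower in batch A, beside 30.5% and 33.2% of all genes and 63.8% in either direction. In batch B 13 of 72 were higher and 12 lower, beside 31.8% and 34.8% and 66.6% in either direction. Without the libraries that stood apart the batch A split was 6 higher and 14 lower, so its direction depended on those libraries. The split with library totals alone was 25 higher and 1 lower in batch A, and 19 higher and 5 lower in batch B. Leaving out WT 18 DAP replicate 1 or 2 brought the 17 calls of batch A to 11 or 10, and without WT 18 DAP replicate 2 the 25 calls of batch B became 16. The 60 members tested in both batches included 17 called in batch A and 24 called in batch B. The 11 rows called in both batches had the same direction, which is 64.7% of the batch A calls and 45.8% of the batch B calls. Of these, 9 were higher in dry seeds, among them ATCG00190 and the ribosomal protein rows ATCG00660 (log2 fold changes 1.32 and 1.62 for A and B) and ATCG00750 (2.53 and 2.33). The other 2 were lower, among them ATCG00680 (-1.51 and -2.03 for A and B). Without the libraries that stood apart, fewer than 9 members were higher in batch A, so not all of the 9 keep that call. The share of all genes called in both batches was not counted, so this agreement is a description. Over all 8 stages of batch A, 34 of 60 members differed in the edgeR F test, beside 92.2% of all genes.

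Nuclear genes for photosynthesis moved far more in the same seeds. All 27 nuclear photosynthesis genes tested, which encode subunits that share complexes with plastid products, and all 14 light-harvesting genes fell at 18 against 12 DAP. The median log2 fold change was -8.26 for the photosynthesis genes and -9.63 for the light-harvesting genes, beside -0.91 for the 60 plastid members and -0.07 for all genes. With each group of at most 3 counts per library set to 3 counts, the medians were -7.60, -8.99 and -0.52. Both lists together held 0.978% of counts at 12 DAP and 0.0151% at 18 DAP of batch A. Other nuclear genes for plastid functions moved less, with median log2 fold changes of -1.43 for 6 sigma factors, of which 5 fell, -1.19 for 5 genes of plastid RNA decay and binding, of which 4 fell, and 0.38 for 12 genes for proteins associated with the plastid-encoded polymerase, of which 8 rose and 3 fell. Single sigma factor transcripts had courses of their own. SIGA averaged 24.7 ± 4.37 CPM at 12 DAP, 1.51 ± 0.316 at 18 DAP and 0.608 ± 0.0264 in dry seeds of batch A. SIGE, known for light- and stress-related transcription in leaves, averaged 45.4 ± 11.7 CPM at 12 DAP, 30.5 ± 8.28 at 18 DAP and 1.69 ± 0.753 in dry seeds. SIGF averaged 6.71 ± 0.0797 CPM at 12 DAP, 0.604 ± 0.231 at 18 DAP and 12.1 ± 2.09 in dry seeds (SD, n = 3 each). The nuclear-encoded phage-type polymerases rose instead. SCA3, the polymerase of plastids, averaged 5.84 ± 0.621 CPM at 12 DAP, 20.0 ± 1.81 at 18 DAP and 68.1 ± 0.534 in dry seeds. Of the 12 genes for polymerase-associated proteins, 11 were higher and 0 lower in dry than in 18 DAP seeds, in batch A as in batch B. The mitochondria-encoded rows also rose late, with 37 of 44 tested higher and 0 lower in dry against 18 DAP seeds of batch A and 37 of 55 higher and 1 lower in batch B.

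In abi3-6 seeds, plastid rows called higher than WT of the same stage outnumbered those called lower at each of 6 stages. Their share did not exceed that of all genes at every stage. It lay above that of all genes at 18 DAP, at 24 DAP and in dry seeds, and below it at 16, 20 and 22 DAP. At 18 DAP and at 24 DAP the excess depended on a single abi3-6 library. At 24 DAP 37 of 72 members were higher and 0 lower, and in dry seeds 39 were higher and 2 lower. That is 51.4% and 54.2% of the members tested called higher, beside 42% and 43.2% of all genes called higher, 35.5% and 34.5% called lower and 77.6% and 77.7% called in either direction. The bulk of the genome thus moved too, and the members' calls were one-sided where those of all genes were not. A row could pass the filter through a single group in which it was high, which can favour calls of higher. The direction of these calls is therefore a description. The median log2 fold change of the members was 1.40 at 24 DAP and 1.53 in dry seeds as fitted, and 1.35 and 1.25 with groups of at most 3 counts set to 3, beside 0.13 and 0.17 for all genes. Without abi3-6 replicate 2 the 24 DAP count was 20, with 19 of 72 higher and 1 lower. That share called higher lies below the 42% of all genes in the full fit. At 16, 18, 20 and 22 DAP in batch A, members were higher in 14, 34, 16 and 16 cases of 60 and lower in 0, 0, 1 and 4, beside 33.3%, 38.5%, 44.1% and 43.6% of all genes called higher, 33.2%, 36%, 35% and 33.8% called lower and 66.5%, 74.5%, 79.2% and 77.4% called in either direction. Called higher were thus 23.3%, 56.7%, 26.7% and 26.7% of the members tested. At 16, 20 and 22 DAP this lies below the share of all genes and is no result about the members. The 22 DAP split with library totals alone was 25 higher and 1 lower. The 34 at 18 DAP rest on replicate 1 of abi3-6, in which members held 0.479% of counts beside 0.169% in the other library, and 14 members were called without it. With all batch A libraries that stood apart left out and the model fitted again, 13 were higher and 2 lower. The count at 16 DAP was 7 without WT replicate 3 and 7 without abi3-6 replicate 1, and that at 22 DAP was 12 without abi3-6 replicate 1.

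The share of counts held by the members averaged 0.106% ± 0.00363 at 16 DAP, 0.324% ± 0.219 at 18 DAP, 0.236% ± 0.0111 at 20 DAP and 0.235% ± 0.0306 at 22 DAP in abi3-6 (SD, n = 2 each), against 0.0674%, 0.0729%, 0.125% and 0.0712% in WT of batch A. It averaged 0.442% ± 0.0408 at 24 DAP and 0.452% ± 0.151 in dry abi3-6 seeds, against 0.1% ± 0.0106 and 0.0893% ± 0.00766 in WT (SD, n = 3 each). The other 89 members held 287 ± 110 CPM of unscaled totals in dry abi3-6, against 81.4 ± 4.10 in WT. Mitochondria-encoded rows held 0.177% ± 0.0503 in dry abi3-6, against 0.0832% ± 0.00342 in WT. Of the 55 mitochondrial rows tested, however, 5 were higher and 17 lower, with a median log2 fold change of -0.63. Markers of the seed coat summed to 619 CPM of unscaled totals in dry abi3-6, against 11.5 in WT, with 3 of 5 genes higher and 1 lower, and storage and oil body genes held 0.652% of counts in abi3-6, against 5.48% in WT. What part such differences in tissue make-up have in the plastid values was not tested.

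ATCG00490 had the largest log2 fold change among the abi3-6 members named by rule at each stage from 18 DAP on. In dry seeds it had 38.9, 42.6 and 13.0 CPM in abi3-6, against 0.640, 0.931 and 0.808 CPM in WT. No library overlapped, and the log2 fold change was 5.28 (SE 0.46, adjusted p = 8.13e-17). It was higher at each earlier stage too, with log2 fold changes of 1.63 at 16 DAP, 3.76 at 18 DAP, 3.89 at 20 DAP, 4.19 at 22 DAP and 5.10 at 24 DAP. The 16 DAP call was lost without WT replicate 3 or either abi3-6 library. At 16 DAP the row had 3.92 and 3.85 CPM in abi3-6, against 1.45, 1.92 and 0.511 in WT, and at 20 DAP 6.89 and 7.36 in abi3-6, against 0.342, 0.665 and 0.438 in WT. The ClpP row ATCG00670 had 13.0, 10.9 and 8.38 CPM in dry abi3-6, against 1.74, 3.13 and 2.51 CPM in WT. Its log2 fold change was 2.11 (SE 0.29, adjusted p = 1.31e-09), and between 1.41 and 2.63 at the earlier stages, all past the test.

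ATCG00190, which rose late in WT, was already high in young abi3-6 seeds. It had 6.07 and 5.69 CPM at 16 DAP and 13.5 and 12.1 CPM at 18 DAP in abi3-6, against 0.920, 1.80 and 1.23 CPM at 16 DAP and 1.99, 3.62 and 2.17 at 18 DAP in WT. At 20 DAP it had 19.7 and 19.5 CPM in abi3-6, against 6.95, 8.37 and 6.69 in WT. In dry seeds it had 25.3, 19.8 and 17.3 CPM in abi3-6, against 11.1, 13.9 and 13.6 in WT. The log2 fold change was 2.14 at 16 DAP, 2.32 at 18 DAP, 1.42 at 20 DAP, 1.06 at 22 DAP, 0.58 at 24 DAP and 0.69 in dry seeds, past the test at each stage. The groups overlapped at 24 DAP alone. ATCG00020 did not share this pattern. It had 3.75 and 4.69 CPM at 20 DAP in abi3-6, against 11.7, 41.9 and 15.9 CPM in WT (log2 fold change -2.41, SE 0.87, adjusted p = 0.0143), and 23.2, 23.5 and 8.49 CPM in dry abi3-6, against 18.1, 14.7 and 17.2 in WT, with overlap (log2 fold change 0.12, SE 0.44). The WT library of 41.9 CPM at 20 DAP is one of those that stood apart, and the 20 DAP call was lost without it (adjusted p = 0.0993), without either abi3-6 library and with library totals alone. The ribosomal protein row ATCG00660 was lower in dry abi3-6, at 0.567, 0.487 and 0.344 CPM, against 1.28, 1.10 and 0.987 in WT (log2 fold change -1.28, SE 0.53, adjusted p = 0.0243).

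Nuclear photosynthesis genes were higher in abi3-6 at all 6 stages in 27 of 27 cases, with a median log2 fold change between 5.71 and 9.33 as fitted, and between 5.36 and 8.60 with groups of at most 3 counts set to 3. Together with the light-harvesting genes they held 3.22% of counts in dry abi3-6, against 0.0189% in WT. All 6 sigma factors were higher in dry abi3-6. SIGA averaged 63.3 ± 5.40 CPM in abi3-6, against 0.562 ± 0.0693 in WT. SIG2 averaged 41.0 ± 3.79 CPM in abi3-6, against 9.57 ± 0.769 in WT. SIGF averaged 78.8 ± 3.94 CPM in abi3-6, against 14.8 ± 1.76 in WT (SD, n = 3 each). Both phage-type polymerase genes were lower, SCA3 with 53.9 ± 1.3 CPM in abi3-6, against 81.3 ± 3.56 in WT, and AT5G15700 with 19.9 ± 0.977 CPM in abi3-6, against 42.9 ± 2.66 in WT.

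Seeds of abi3-12, another ABI3 allele, had fewer calls. In dry seeds 15 of 72 members were higher and 0 lower, or 20.8% higher, beside 16.2% of all genes called higher, 14.2% called lower and 30.4% called in either direction. The median log2 fold change was 0.65 as fitted and 0.60 with groups of at most 3 counts set to 3, beside 0.00 for all genes. Without a single library, WT replicate 1 or 3 or abi3-12 replicate 1 or 3, the count of 15 was 6, 5, 7 or 8. Each of these lies below the 16.2% of all genes called higher in the full fit, so the 20.8% is no firm result about the members. At 18, 20, 22 and 24 DAP the members were higher in 10, 2, 3 and 9 cases and lower in 0, 2, 0 and 1, beside 15.2%, 18.3%, 17.2% and 10.1% of all genes called higher, 13.9%, 19.4%, 17.5% and 11.2% called lower and 29.1%, 37.6%, 34.7% and 21.3% in either direction. Called higher were thus 13.9%, 2.78%, 4.17% and 12.5% of the members tested. This lies below the share of all genes at 18, 20 and 22 DAP and near it at 24 DAP, and is no result about the members. At 20 DAP, library totals alone gave 7 higher and 0 lower. The 18 DAP count was 4 without abi3-12 replicate 2, in which members held 0.565% of counts beside 0.220% in the other library, and 4 without WT replicate 3. With both batch B libraries that stood apart left out and the model fitted again, 3 were higher and 3 lower. The 20 DAP count of 4 was 2 without abi3-12 replicate 2 or 3, and the 24 DAP count of 10 was 6 without WT replicate 1 or 3 and 5 without abi3-12 replicate 1.

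Among abi3-12 rows, ATCG00180 had 8.23, 7.24 and 7.72 CPM in dry abi3-12, against 3.29, 3.72 and 2.96 CPM in WT (log2 fold change 1.21, SE 0.35, adjusted p = 0.00499). ATCG00170 had 6.63, 6.44 and 6.65 CPM in abi3-12, against 3.75, 3.13 and 2.6 in WT (log2 fold change 1.05, SE 0.38, adjusted p = 0.0266). Neither pair of groups overlapped, and both rows rose late in WT. The ATCG00170 call was lost without WT replicate 2 or 3 or abi3-12 replicate 1 or 3. ATCG00490, by contrast, had 1.48, 1.29 and 1.56 CPM in dry abi3-12, against 0.640, 0.931 and 0.808 in WT, a difference that did not pass (log2 fold change 0.85, SE 0.59, adjusted p = 0.309). The ClpP row ATCG00670 had 5.34, 4.51 and 4.76 CPM in abi3-12, against 1.74, 3.13 and 2.51 in WT (log2 fold change 0.98, SE 0.31, adjusted p = 0.00977), a call lost without WT replicate 1. Set side by side in dry seeds, 27 members were higher and 10 lower in abi3-6 than in abi3-12, beside 42.2% and 33.7% of all genes and 75.9% in either direction. These were 37 and 6 with library totals alone. ATCG00490 accounted for the largest difference named there, at 31.5 ± 16.1 CPM in abi3-6, against 1.44 ± 0.140 in abi3-12 (log2 fold change 4.43, SE 0.41, adjusted p = 1.74e-15).

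The single dog1-4 mutant had few plastid calls. At 20 DAP 5 of 72 members were lower and 0 higher, beside 5.27% of all genes called lower, 7.24% called higher and 12.5% in either direction, and ATCG00020 was among them with 17.9, 19.9 and 30.1 CPM in dog1-4, against 106, 30.1 and 30.3 CPM in WT (log2 fold change -1.27, SE 0.43, adjusted p = 0.0402). Without WT replicate 1, dog1-4 replicate 1 or dog1-4 replicate 2 no member was called, and without dog1-4 replicate 3 there were 2. None was called with library totals alone or in a fit of these 2 groups alone, and the ATCG00020 call was also lost without a filter on low counts (adjusted p = 0.0588). No member was called at 22 or 24 DAP in edgeR, beside 17.8% and 15.2% of all genes (9.49% and 8.14% higher, 8.33% and 7.02% lower). At each of these stages 3 members had an unadjusted p under 0.05, and DESeq2 called 1 at 22 DAP and 0 at 24 DAP, while leaving out WT replicate 1 gave 1 call at each of these stages and leaving out WT replicate 2 gave 1 at 24 DAP. In dry seeds 2 were higher and 3 lower, beside 16.9% and 13.7% of all genes and 30.6% in either direction. That count of 5 fell to 1 without WT replicate 1 or 2, to 3 without WT replicate 3 or dog1-4 replicate 3 and to 0 without dog1-4 replicate 2, and with library totals alone 2 were higher and 0 lower. DESeq2 and the fit without a filter each called 0 higher and 2 lower, and a fit of these 2 groups alone called 1 higher and 9 lower of the 27 it tested. A row could enter the fit of 2 groups by being high in WT alone, so the direction there is a description. Of the 72 members 10 had a positive and 60 a negative log2 fold change. The median in dry seeds was -0.59 as fitted and -0.52 with groups of at most 3 counts set to 3. The mitochondrial rows had a median of -0.53 there, with 1 of 55 higher and 12 lower.

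Dry seeds of L2-1 had low values in nearly all plastid rows without a call. The members held 0.0647% ± 0.00287 of counts in L2-1, against 0.0893% ± 0.00766 in WT, and the 89 less abundant ones 38.5 ± 7.03 CPM of unscaled totals, against 81.4 ± 4.10 (SD, n = 3 each). The mitochondrial share was lower too, at 0.0548% ± 0.00199 in L2-1, against 0.0832% ± 0.00342 in WT, without overlap, while 0 of 55 mitochondrial rows were called and their median log2 fold change was -0.22. Its part in the plastid values was not tested. Of 72 members 67 had a negative log2 fold change and 3 a positive one, with a median of -0.99 as fitted and -0.81 with groups of at most 3 counts set to 3, beside 0.00 for all genes. None passed the edgeR test adjusted over all genes, which called 1.01% of 20912 genes, 0.292% higher and 0.722% lower. At an unadjusted p under 0.05 there were 18 members, DESeq2 called 2, and a fit of these 2 groups alone called 14 of the 24 it tested, all lower. A row could enter that fit by being high in WT alone, which can favour calls of lower. The share of all genes called in that fit was not counted, so its direction is a description. The ClpP row ATCG00670 had 0.974, 1.04 and 1.20 CPM in L2-1, against 1.74, 3.13 and 2.51 CPM in WT, without overlap (log2 fold change -1.18, SE 0.39, adjusted p = 0.136). ATCG00170 had 0.682, 0.855 and 1.5 CPM in L2-1, against 3.75, 3.13 and 2.6 in WT (log2 fold change -1.59, SE 0.48, adjusted p = 0.0951). Since values of one library move together, as shown for replicates, the 72 rows are not 72 separate observations.

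In the double mutant abi3-12 dog1-4, 24 of 72 plastid rows were higher and 1 lower at 22 DAP, beside 39.5% and 35.7% of all genes and 75.2% in either direction, with a median log2 fold change of 0.97 as fitted and 0.45 with groups of at most 3 counts set to 3. Without the libraries that stood apart, abi3-12 dog1-4 replicate 3 at this stage among them, 16 were higher and 5 lower. At 18, 20 and 24 DAP and in dry seeds the members were higher in 5, 12, 16 and 8 cases and lower in 1, 4, 0 and 3, beside 21.8%, 29.1%, 37.9% and 40.7% of all genes called higher, 19.5%, 29.7%, 31.5% and 33.1% called lower and 41.2%, 58.8%, 69.4% and 73.8% in either direction. Called higher were 33.3% of the members tested at 22 DAP, and 6.94%, 16.7%, 22.2% and 11.1% at these other stages. At every stage this lies below the share of all genes and is no result about the members. Library totals alone gave splits of 25 higher and 0 lower at 18 DAP, 43 and 1 at 20 DAP and 23 and 0 in dry seeds, and with RLE factors 5 and 0 at 18 DAP. The 18 DAP count of 6 was 3 without abi3-12 dog1-4 replicate 3, and the 24 DAP count of 16 was 8 without WT replicate 1. Shares at 18 DAP were 0.439% ± 0.0856 in the double mutant, against 0.158% ± 0.0149 in WT. Most of this lay in the 4 most abundant rows, which held 0.428% against 0.152%. Mitochondrial shares were 0.212% ± 0.0337 against 0.0492% ± 0.00179, and seed coat genes were at 1417 CPM of unscaled totals against 603. Of the 5 seed coat genes, 2 were higher and 1 lower, with a median log2 fold change of 0.46. Storage and oil body genes held 20.4% of the same totals in the double mutant, against 43.9% in WT. Their part in these shares was not tested. ATCG00490 had 3.30, 9.76 and 14.3 CPM at 22 DAP in abi3-12 dog1-4, against 0.260, 0.275 and 1.10 CPM in WT (log2 fold change 4.54, SE 0.63, adjusted p = 1.69e-09). The WT values there rest on at most 3 counts per library. In dry seeds the row had 5.69, 7.36 and 5.55 CPM in the double mutant, against 0.640, 0.931 and 0.808 in WT (log2 fold change 2.94, SE 0.48, adjusted p = 1.70e-07). ATCG00020 was lower in dry seeds, at 4.59, 6.10 and 6.56 CPM in the double mutant, against 18.1, 14.7 and 17.2 in WT (log2 fold change -1.53, SE 0.47, adjusted p = 0.00308), a call lost with library totals alone (adjusted p = 0.0726). Nuclear photosynthesis genes were higher in 27 of 27 cases in these dry seeds, while 0 mitochondrial rows were higher and 49 of 55 lower.

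Against the single abi3-12 mutant, dry abi3-12 dog1-4 seeds had 1 plastid row higher and 15 lower, beside 38.8% and 30.4% of all genes and 69.2% in either direction. With RLE factors these were 4 and 12, and with library totals alone 10 and 9, so the direction of the count depended on the scaling. The row that was higher was ATCG00490, at 6.20 ± 1.01 CPM in abi3-12 dog1-4, against 1.44 ± 0.140 in abi3-12 (log2 fold change 2.09, SE 0.42, adjusted p = 1.3e-05). ATCG00170 was lower with 1.42, 2.2 and 1.81 CPM in the double mutant, against 6.63, 6.44 and 6.65 CPM in abi3-12 (log2 fold change -1.86, SE 0.38, adjusted p = 1.51e-05). ATCG00860 and its pair partner ATCG01280 averaged 0.970 ± 0.0738 CPM in the double mutant, against 4.36 in abi3-12 (log2 fold change -2.16, SE 0.4, adjusted p = 3.02e-06). The ribosomal protein rows ATCG00660 (log2 fold change -1.68, adjusted p = 0.000817) and ATCG00750 (-1.33, adjusted p = 0.0108) were lower as well. Nuclear photosynthesis genes were higher in 27 of 27 cases in the same comparison.

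In dry seeds of the triple mutant abi3-12 dog1-4 cyp707a2, 42 of 72 members were higher and 0 lower than in WT, which is 58.3% called higher, beside 26% of all genes called higher, 22.2% called lower and 48.2% in either direction. The median log2 fold change was 1.48 as fitted and 1.38 with groups of at most 3 counts set to 3, beside 0.00 for all genes. Without replicate 2 of the triple mutant the count was 27. A row could pass the filter through a single group in which it was high, so the direction of these calls is a description. The most abundant rows were not among these, and ATCG00950 had 281, 361 and 243 CPM in the triple mutant, against 318, 260 and 318 CPM in WT (log2 fold change -0.02, SE 0.29). The other 89 members held 225 ± 58.1 CPM of unscaled totals, against 81.4 ± 4.10 in WT, while the share of all members was 0.119% ± 0.0248 against 0.0893% ± 0.00766 (SD, n = 3 each). ATCG00040 had 6.90, 9.30 and 3.93 CPM in the triple mutant, against 0.914, 1.10 and 1.62 CPM in WT (log2 fold change 2.45, SE 0.49, adjusted p = 2.15e-05). ATCG00860 had 7.45, 9.45 and 4.65 CPM in the triple mutant, against 2.19, 1.69 and 1.53 in WT (log2 fold change 1.98, SE 0.39, adjusted p = 1.79e-05). Neither row overlapped with WT. The annotated rows ATCG00660, ATCG00750 and ATCG00530 were each higher as well, by log2 fold changes of 1.00, 1.36 and 1.77. The mitochondrial rows did not follow, with 0 of 55 higher, 28 lower and a mitochondrial share of 0.0537% ± 0.00842 against 0.0832% ± 0.00342 in WT.

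At earlier stages of that triple mutant, the members were higher in 1, 14, 7 and 17 cases at 18, 20, 22 and 24 DAP and lower in 0, 1, 5 and 0, beside 17.2%, 25.9%, 22.6% and 22.6% of all genes called higher, 16.7%, 25.8%, 22.5% and 21.3% called lower and 33.9%, 51.7%, 45.1% and 43.9% in either direction. The share called higher lies below that of all genes at 18, 20 and 22 DAP and, at 23.6%, near it at 24 DAP. These counts are no result about the members. The split at 22 DAP was 16 higher and 0 lower with library totals alone. The call at 18 DAP was lost without any of the 3 WT libraries or without replicate 2 or 3 of the triple mutant, and without replicate 1 of the triple mutant there were 2. The 20 DAP count of 15 was 8 without WT replicate 3. The 22 DAP count of 12 was 3 without WT replicate 1 and 7 without WT replicate 2, and the 24 DAP count of 17 was 10 without WT replicate 3. At 22 DAP, ATCG00920 and ATCG01210 averaged 158 ± 22.4 CPM in the triple mutant, against 334 ± 104 in WT (log2 fold change -1.09, SE 0.32, adjusted p = 0.00390 for ATCG00920), a call lost without WT replicate 1 and with library totals alone.

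Set against the double mutant abi3-12 dog1-4, which carries the same 2 alleles without cyp707a2, dry triple mutant seeds had 38 members higher and 0 lower. That is 52.8% called higher, beside 28% of all genes called higher, 34.3% called lower and 62.4% in either direction. As against WT, rows could pass the filter through a group in which they were high, so the direction is a description. The median log2 fold change was 1.3 as fitted and with groups of at most 3 counts set to 3, beside -0.04 for all genes. The mitochondrial rows moved the same way in this comparison, with 36 of 55 higher and 0 lower. Seed tissue markers moved as well. Storage and oil body genes, of which 6 of 7 were higher and 0 lower, held 6.59% of counts in the triple mutant, against 1.31% in the double mutant. Seed coat genes, of which 1 of 5 was higher and 2 lower, summed to 18.7 CPM of unscaled totals in the triple mutant, against 49.5 in the double mutant. Their part in the plastid values was not tested. ATCG00170 had 9.67, 12.8 and 7.80 CPM in the triple mutant, against 1.42, 2.2 and 1.81 CPM in the double mutant (log2 fold change 2.47, SE 0.37, adjusted p = 3.16e-08). ATCG00860 had 7.45, 9.45 and 4.65 CPM in the triple mutant, against 0.896, 1.04 and 0.969 in the double mutant (log2 fold change 2.87, SE 0.39, adjusted p = 3.39e-09). ATCG00490 did not go with them, at 3.61 ± 1.24 CPM in the triple mutant, against 6.2 ± 1.01 in the double mutant (log2 fold change -0.80, SE 0.36, adjusted p = 0.0513). Nuclear photosynthesis genes were lower in 27 of 27 cases, with a median log2 fold change of -3.46, and with the light-harvesting genes held 0.0896% of counts in the triple mutant, against 0.704% in the double mutant. Sigma factors were lower in 4 of 6 cases and polymerase-associated proteins in 11 of 12, with none higher in either list.

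**Figure D3:**
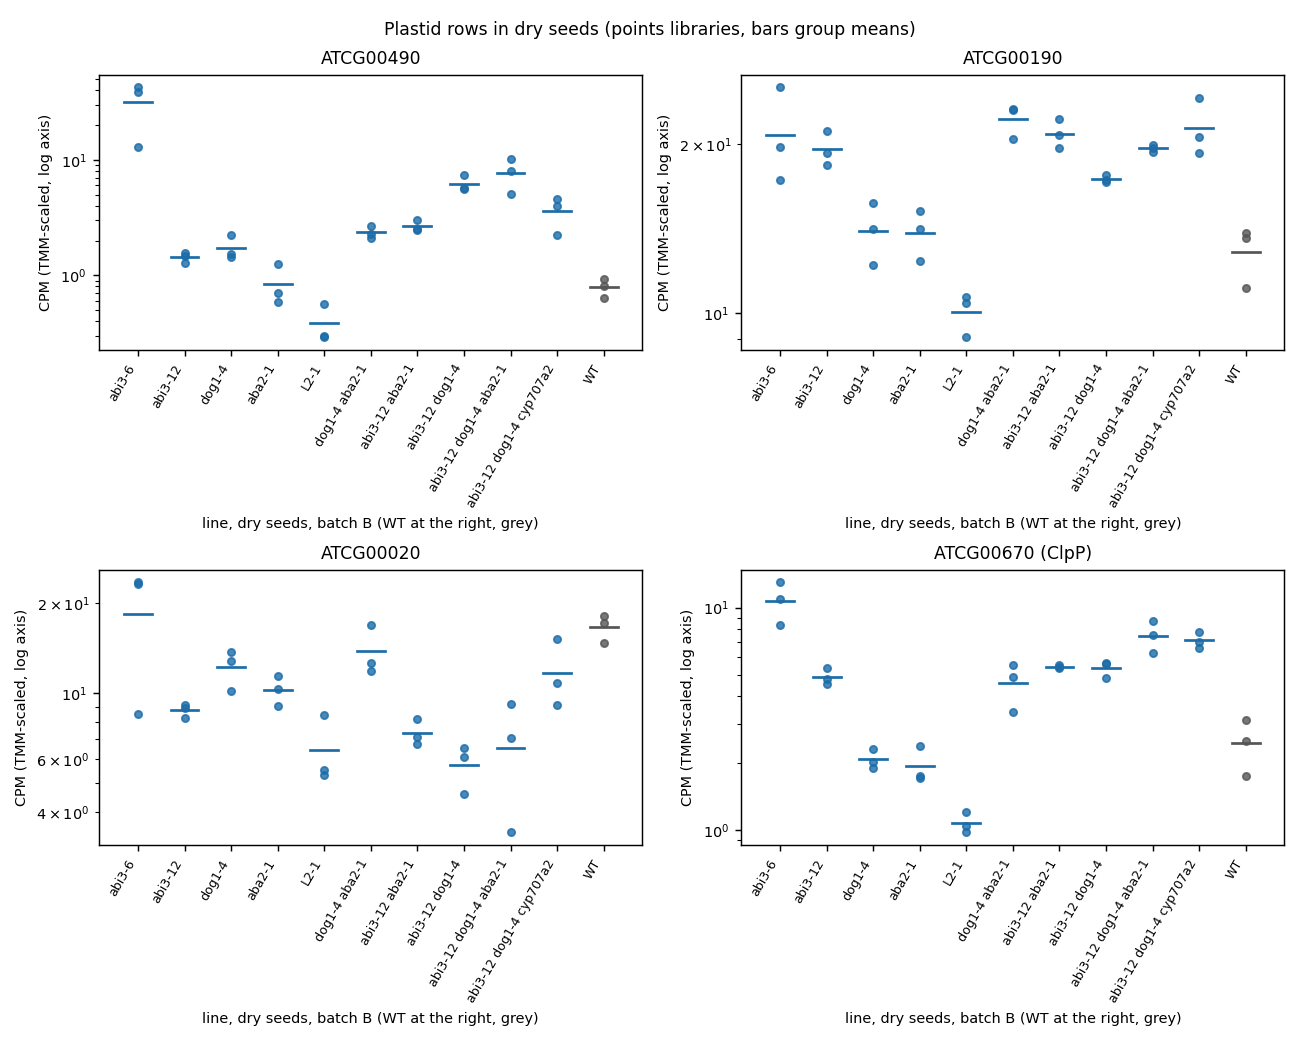
Level of 4 plastid rows in dry seeds of batch B, in CPM scaled by TMM factors on a log axis, for the 10 lines and, at the right in grey, WT, with points for libraries and bars for means. ATCG00490 ranges from 0.387 CPM on average in L2-1 to 31.5 in abi3-6, against 0.793 in WT, and ATCG00670 is lowest in L2-1.

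The lines with aba2-1 were sampled as dry seeds only. In single aba2-1, 2 members were higher and 1 lower, beside 15.8% of all genes (9.58% higher, 6.22% lower), and this count of 3 was 0 without WT replicate 1 and 1 without aba2-1 replicate 1. Of its 72 members 17 had a positive and 53 a negative log2 fold change, with a median of -0.64 as fitted and -0.35 with groups of at most 3 counts set to 3, and a fit of these 2 groups alone called 0 higher and 9 lower of the 26 it tested. As for L2-1, a row could enter that fit by being high in WT alone, so its direction is a description. In dog1-4 aba2-1, 7 were higher and 1 lower, beside 48.4% (25.3% higher, 23.1% lower), and this count of 8 was 1 without WT replicate 1 and 5 without replicate 3 of the double mutant. In abi3-12 aba2-1, 9 were higher and 3 lower, beside 61.5% (32.6% higher, 28.9% lower), and with library totals alone 17 and 0. In abi3-12 dog1-4 aba2-1, 10 were higher and 5 lower, beside 75.3% (41.3% higher, 34% lower), and with library totals alone 22 and 0. In all lines with aba2-1 the share of members called lies below that of all genes and is no result about the members. The lines differed in ATCG00490, which had 10.1, 5.01 and 7.92 CPM in abi3-12 dog1-4 aba2-1, against 0.640, 0.931 and 0.808 in WT (log2 fold change 3.25, SE 0.48, adjusted p = 1.27e-08). ATCG00190 had 20.4, 23.0 and 23.1 CPM in dog1-4 aba2-1, against 11.1, 13.9 and 13.6 in WT (log2 fold change 0.78, SE 0.17, adjusted p = 6.21e-05). ATCG00020 had 6.75, 8.17 and 7.11 CPM in abi3-12 aba2-1, against 18.1, 14.7 and 17.2 in WT (log2 fold change -1.18, SE 0.48, adjusted p = 0.0269), a call lost without any 1 of 5 of the 6 libraries and with library totals alone. Between abi3-12 dog1-4 aba2-1 and abi3-12 dog1-4, 0 of 72 rows were called in edgeR, beside 13.3% of all genes (6.45% higher, 6.84% lower), with 0 at an unadjusted p under 0.05 and 0 in DESeq2, while a fit of these 2 groups alone called 6.

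In dry seeds of batch B, mean levels of ATCG00490 ran in the order L2-1, WT, aba2-1, abi3-12, dog1-4, dog1-4 aba2-1, abi3-12 aba2-1, abi3-12 dog1-4 cyp707a2, abi3-12 dog1-4, abi3-12 dog1-4 aba2-1 and abi3-6. The ranges of single libraries of neighbours in this order overlapped between WT and aba2-1, abi3-12 and dog1-4, dog1-4 and dog1-4 aba2-1, dog1-4 aba2-1 and abi3-12 aba2-1, abi3-12 aba2-1 and the cyp707a2 triple mutant, and abi3-12 dog1-4 and abi3-12 dog1-4 aba2-1. The other neighbours in the order did not overlap. This order is a description. The nuclear photosynthesis and light-harvesting genes held 3.22% of counts in abi3-6, 1.32% in abi3-12 dog1-4 aba2-1, 0.704% in abi3-12 dog1-4 and 0.184% in abi3-12 aba2-1, against 0.0189% in WT.

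**Figure D4:**
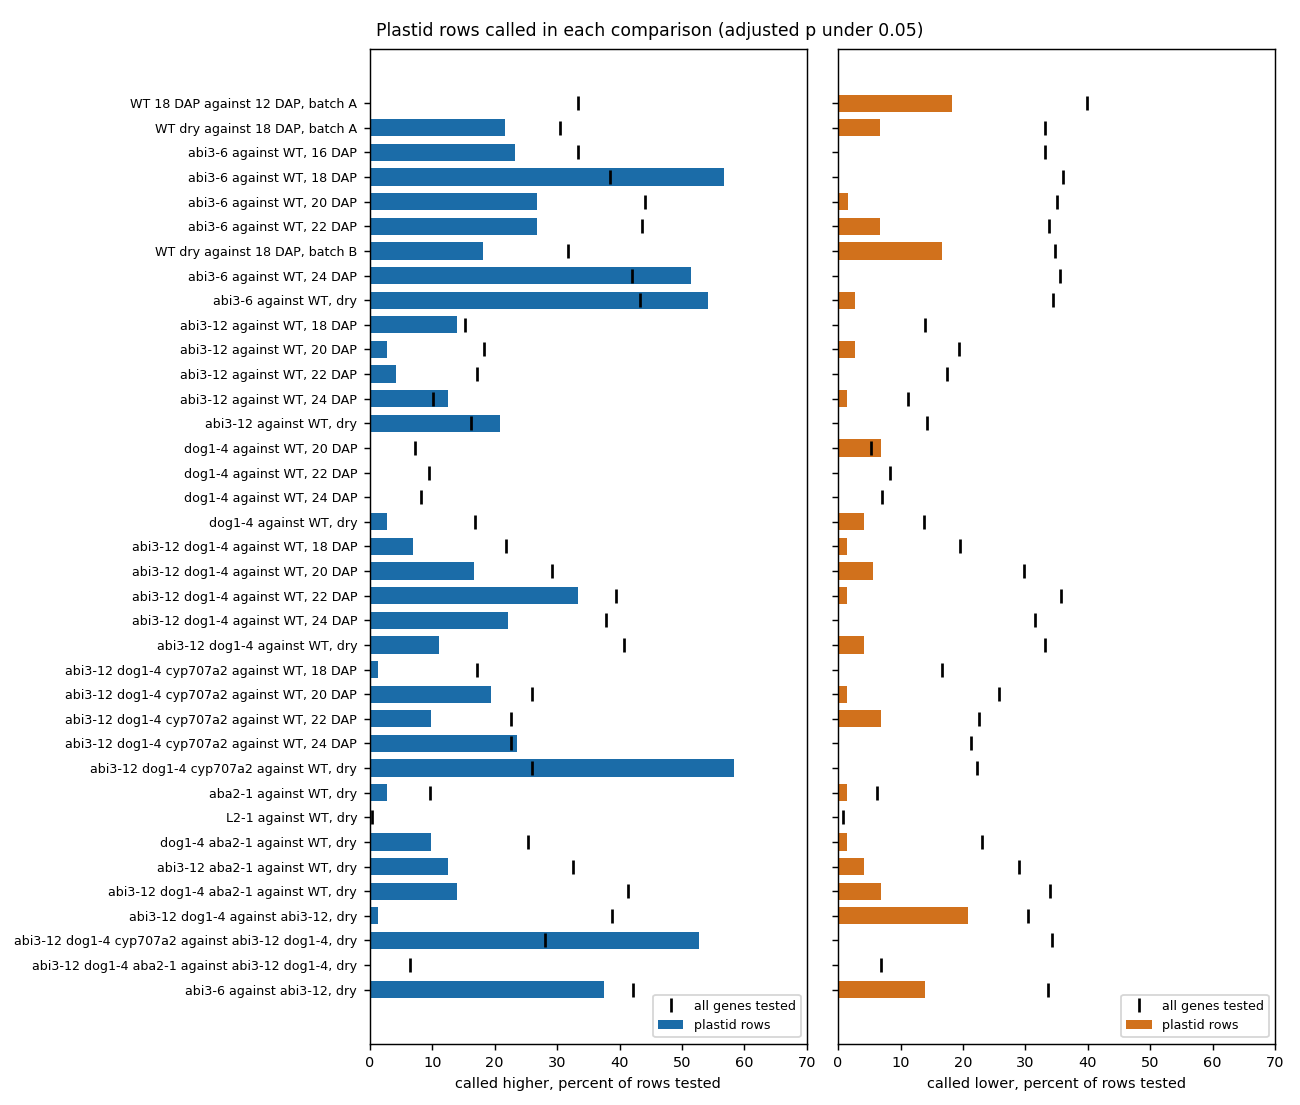
Percent of plastid rows tested that were called higher (left) and lower (right) in each comparison, as bars, with a black tick for the percent of all genes tested. The bar for rows called higher passes the tick most clearly in dry abi3-12 dog1-4 cyp707a2, at 58.3% beside 26%, and bars for rows called lower stay left of their ticks except in dog1-4 at 20 DAP, where no row was called with library totals alone.

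Over the 30 comparisons of a line with WT of its stage, which share their WT libraries within a stage, 62 members were called higher at least once and 19 lower at least once, 14 of them in both directions. ATCG00190 and the ClpP row ATCG00670 were each higher in 21 comparisons and lower in 0, with log2 fold changes from -0.35 to 2.32 for ATCG00190 and from -1.18 to 2.63 for ATCG00670. ATCG00490 was higher in 14 and lower in 0. ATCG00020 was the member most often lower, in 10 comparisons, and was higher in 0. With library totals alone, 9 of these 10 calls were lost, and 8 were lost without a single library. Without a single library, 6 of the 21 calls of ATCG00190 were lost, for abi3-12 at 20 and 24 DAP, abi3-12 dog1-4 at 18 DAP, 24 DAP and dry, and the cyp707a2 triple mutant at 24 DAP. Likewise 4 of the 21 calls of ATCG00670 and 3 of the 14 of ATCG00490 were lost. These 30 comparisons are not independent of each other. The same counts were not made over all genes, of which single comparisons called between 1.01% and 79.2% in either direction. How often a member was called is therefore a description and no trait particular to the members.

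**Figure D5:**
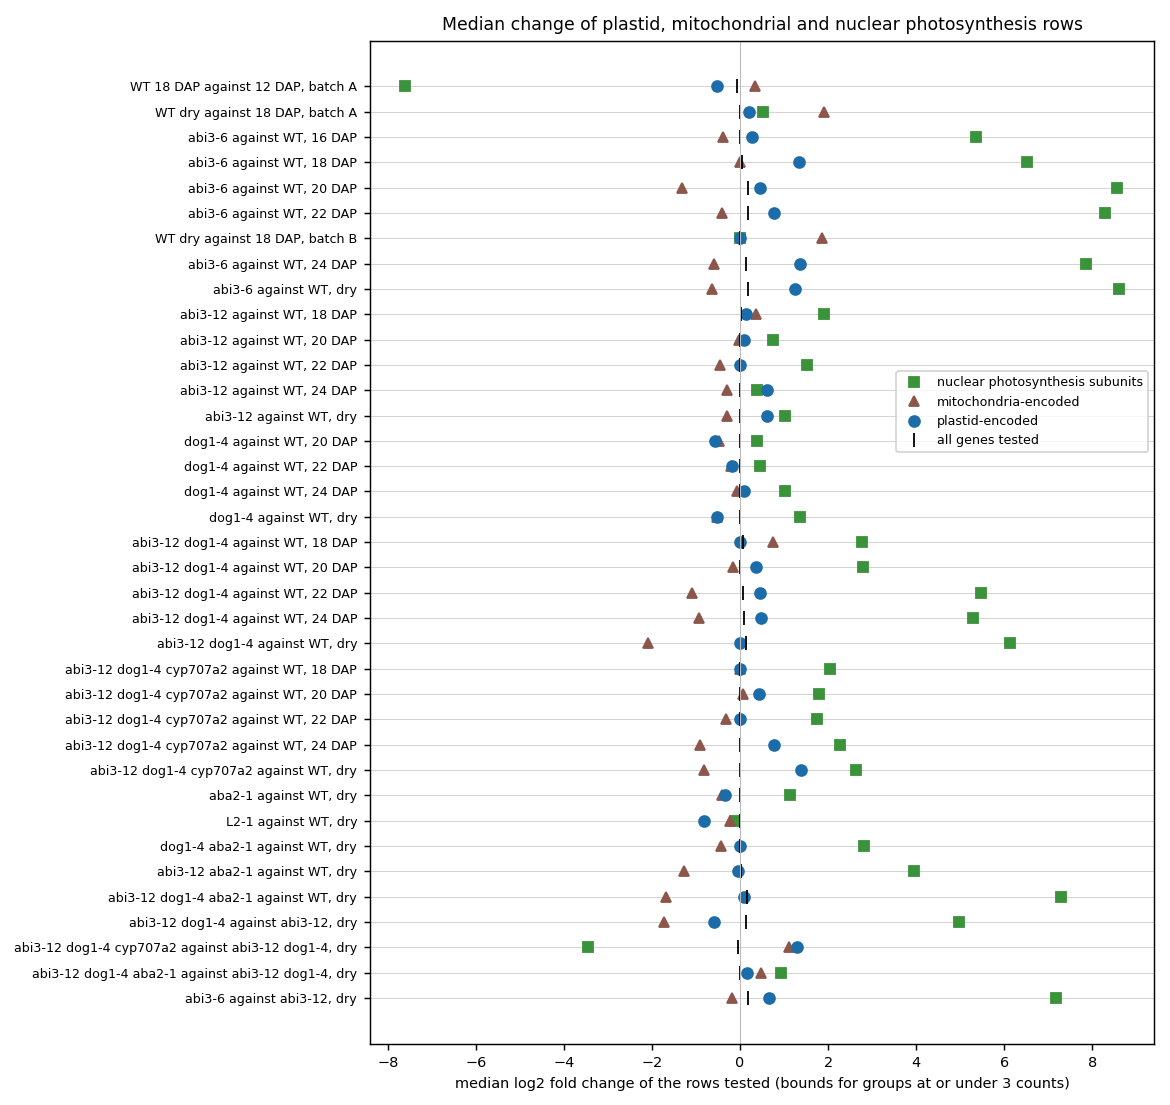
Median log2 fold change of the rows tested in each comparison, for plastid-encoded members (circles), mitochondria-encoded rows (triangles), nuclear photosynthesis genes (squares) and all genes tested (ticks), with any group of at most 3 counts per library set to 3 counts. The squares lie far to the right in abi3-6, at 8.60 in dry seeds, where the circle is at 1.25, and to the left in the comparison of the cyp707a2 triple with the double mutant, at -3.46, where the circle is at 1.3.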

How the data were processed

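Poly(A)-captured, strand-specific RNA libraries were made from pooled seeds, per the labels' protocols. Counts per gene are raw whole numbers as deposited by the authors, and no further step was applied to them before testing. The submitters' processing notes name the TAIR10 build, HISAT2 2.1.0, StringTie 1.3.2, Cufflinks and SAMtools, without giving their roles. No sample column was left unused. From the counts, edgeR 4.0.16 in R 4.3.3 computed TMM factors and quasi-likelihood tests, 1 fit per batch over all its groups and genes, keeping genes that pass filterByExpr at a minimum count of 10. That left 20414 genes in batch A and 20912 in batch B. Adjusted p-values are Benjamini-Hochberg values over all genes of a fit, with a threshold of 0.05. CPM values use TMM-scaled totals. The tests judge differences between groups against the spread between seed pools, and shares rest on library totals from 2577281 to 20277489 counts.

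Rows were named by rule. In each comparison these were the 3 called members with the largest log2 fold change, in either direction, among those with a mean of at least 5 CPM in a compared group, together with rows around the threshold, nuclear partners and mutated loci. The part of the rule that used gene symbols and role groups could not be applied, because 0 of 133 ATCG IDs matched the gene table used for names, while 37051 nuclear IDs did. ATCG00660, ATCG00750 and ATCG00530 were named because the reference annotates them, and ATCG01130 by the closing rule on opposite changes. The members and gene lists were chosen with earlier results of these data known. No coordinates or sequences were used. Alternatives were RLE factors, library totals alone, factors without organelle rows, no filter on low counts, fits of only the groups compared, DESeq2 1.42.0, a replicate block, summed copies of paired rows, each replicate left out and, chosen after seeing the data, the libraries high in plastid RNA left out. Fits with libraries left out kept the genes tested and the trended dispersions of the full fit, which include those libraries. The fit was tried on simulated counts with the same spread for all genes and no shared deviation of rows within a library. Plastid rows differ from that setting, so it is no check of their calls.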

Additional observations from a re-analysis of the deposited data

Results flagged for a closer look

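For ATCG00860, its pair partner ATCG01280 and ATCG01130, the difference between abi3-6 and WT had opposite signs at 18 and 22 DAP, each past the edgeR quasi-likelihood test. For ATCG00860 the log2 fold change was 1.73 at 18 DAP and -1.81 at 22 DAP. Its level at 18 DAP was 2.19 and 0.674 CPM in abi3-6, against 0.497, 0.453 and 0.334 CPM in WT. At 22 DAP it was 0.394 and 0.480 CPM in abi3-6, against 1.38, 1.57 and 1.56 CPM in WT. ATCG01280 holds the same counts and gave 1.73 and -1.81. For ATCG01130 the log2 fold change was 1.69 at 18 DAP and -1.93 at 22 DAP, with 1.75 and 1.07 CPM in abi3-6, against 0.622, 0.302 and 0.334 CPM in WT at 18 DAP, and 0.525 and 0.360 CPM in abi3-6, against 1.53, 2.05 and 1.65 CPM in WT at 22 DAP.

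The rows were picked for these opposite signs, so the difference between the stages is given as a description. It was -3.54 on the log2 scale (22 minus 18 DAP, SE 0.82) for ATCG00860 and for ATCG01280, and -3.62 (SE 0.80) for ATCG01130. In an interaction test across all genes in edgeR, of 60 members, 11 had a negative interaction past the threshold and 0 a positive one, beside 52% of all genes called in either direction. The share of members lies below that of all genes, which were not counted by direction, so this is no result about the members. The abi3-6 library of replicate 1 at 18 DAP is the one in which members held 0.479% of counts. Its part in the interaction was not tested.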

How the results depend on the processing

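Shares of counts moved by less than the replicate spread in all 43 groups with nuclear counts as the denominator and with all ATCG rows counted. Neither change could move them much, since members held 0.155% of all counts and the ATCG rows outside the threshold 800 counts. Both are therefore no check of the shares. Storage and oil body genes held 43.9% of counts at 18 DAP and 5.48% in dry WT seeds of batch B. Their part in the shares was not tested. Leaving out 1 library cannot move the mean of so few by more than their SD, so it is no check of the shares. Library totals alone shifted the median of all genes by -0.54 to 1.26 on the log2 scale, RLE factors by -0.12 to 0.24 and factors without organelle rows by -0.01 to 0.08. The cause of changed counts was not tested.

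With library totals alone, the members called were 23 at 18 against 12 DAP and 26 in dry against 18 DAP of batch A, 26 at 16 DAP and 54 at 18 DAP in abi3-6, 7 at 20 DAP and 8 at 22 DAP in abi3-12, and 0, 1, 1 and 2 at 20, 22, 24 DAP and dry in dog1-4. They were 25, 44, 44, 26 and 23 at the 5 stages of abi3-12 dog1-4, and 5, 31 and 26 at 18, 20 and 24 DAP of the cyp707a2 triple mutant. With only the groups compared in the fit, which tests fewer rows, 3 were called at 18 DAP, 2 at 20 DAP and 25 in dry abi3-12, 0 at 20 DAP, 2 at 22 DAP and 10 in dry dog1-4 (1 higher, 9 lower), and 7, 16, 10 and 21 from 20 DAP to dry in abi3-12 dog1-4. The same fit gave 4 at 18 DAP and 3 at 20 DAP in the cyp707a2 triple mutant, 9 in aba2-1 and 14 in L2-1 (all lower), 23 in abi3-12 dog1-4 aba2-1, 30 between abi3-12 dog1-4 and abi3-12 and 6 between abi3-12 dog1-4 aba2-1 and abi3-12 dog1-4. Rows could enter the fits of only the groups compared through a single group in which they were high. The shares of all genes called in those fits were not counted. DESeq2 called 1 at 22 DAP and 2 in dry dog1-4, 2 at 18 DAP in the cyp707a2 triple mutant and 2 in L2-1. That triple mutant count was also 2 with RLE factors, without organelle rows in the factors and without a filter, which gave 2 in dry dog1-4 too. Summing the copies gave 3 in dog1-4 at 20 DAP. Leaving out the libraries high in plastid RNA gave 15 in abi3-6 and 6 in abi3-12 at 18 DAP. There, ATCG00020 turned to a log2 fold change of -1.52 in abi3-12 (adjusted p = 0.0497), ATCG00920 to -0.20 and ATCG01210 to -0.21, and this pair ranged from -0.20 and -0.21 to 1.67 over the single libraries left out, turning without abi3-12 replicate 2.

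Without 1 library at a time, calls ranged from 5 to 10 for 18 against 12 DAP, from 10 to 18 for batch A dry seeds against 18 DAP, and from 16 to 23 for those of batch B. The range in abi3-6 was 7 to 15, 14 to 45, 12 to 21 and 20 to 39 at 16, 18, 22 and 24 DAP. It was 4 to 13, 2 to 4, 5 to 11 and 5 to 13 at 18, 20 and 24 DAP and dry in abi3-12, and 0 to 5, 0 to 1, 0 to 1 and 0 to 4 at 20, 22 and 24 DAP and dry in dog1-4. It was 3 to 7 and 8 to 15 at 18 and 24 DAP in abi3-12 dog1-4, and 0 to 2, 8 to 16, 3 to 13, 10 to 21 and 27 to 39 at the 5 stages of the cyp707a2 triple mutant. It was 0 to 3 in aba2-1 and 1 to 9 in dog1-4 aba2-1.

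Replicate numbers did not pair the samples, since deviations of same-numbered libraries from their group means had a mean correlation of 0.009 in batch A. With a replicate block the count for 18 against 12 DAP was 12, and none of the 38 counts moved by over 1.5 times. The alternative without ribosomal and transfer RNA rows was not run, since the IDs carry no such annotation.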
